A study of Mus musculus with 9 samples.

Results

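Fibroblast growth factor (FGF) signalling was described through 10 genes, taken by name for their roles in the pathway: the ligands Fgf4 and Fgf8, the receptors Fgfr1, Fgfr2, Fgfr3 and Fgfr4, the feedback inhibitors Spry2, Spry4 and Dusp6, and the target gene Etv4. Each was found in the deposited table by its coordinates and not by the printed names. All 10 had a locus of their own, among 12475 mouse genes that could be given a locus in this way. A secreted FGF binds a receptor tyrosine kinase together with heparan sulphate, the receptor's docking proteins then switch on RAS, and a chain of RAF, MEK and ERK kinases carries the signal to the nucleus. ERK in turn switches on genes that damp it, among them the Sprouty proteins and the phosphatase Dusp6, and transcription factors of the ETS family such as Etv4. In the testis FGF and GDNF support the self-renewal of spermatogonial stem cells, whereas in mouse pluripotent cells Fgf4 made by the cells themselves activates ERK and readies them for differentiation.

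The 9 libraries fell into 3 groups of 3. Those named SSC were primary spermatogonial stem cells (passage 0) from testes of pups at postnatal day 6, enriched with magnetic beads for Gfra1, a co-receptor of GDNF. SSCiPSC and fiPSC were induced pluripotent stem cells (iPSC) from SSC and from male fetal fibroblasts, labelled passage 10 to 11 and enriched for the surface marker SSEA1 to reduce feeder cells. All 3 groups carried the same alleles, a doxycycline-controlled activator, Gt(ROSA)26Sortm1(rtTA*M2)Jae, and a cassette of Pou5f1, Sox2, Klf4 and Myc under the tetO promoter at Col1a1 (tm3, Jae), so the cells not reprogrammed carried it too. The labels state for every sample a mouse embryonic stem cell medium with LIF and doxycycline, whereas the methods of the study describe iPSC lines grown from picked colonies and doxycycline withdrawn in steps at passages earlier than those labelled. The labels do not say whether the 3 libraries of a group came from separate animals or lines, so the p-values below measure only the spread between these libraries.

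Values are FPKM, fragments per kilobase of transcript scaled to the mapped fragments of a library, 1 per locus and library. The depth, estimated from the steps between the lowest values, was 1760000, 4620000 and 1380000 fragments in SSC replicates 1, 2 and 3, and between 13200000 and 17600000 in the 6 iPSC libraries. At this depth 1 fragment per kilobase of transcript was worth 0.567, 0.217 and 0.723 FPKM in SSC replicates 1, 2 and 3, and at most 0.0755 FPKM in an iPSC library. Values under 1 FPKM in SSC therefore rest on very few fragments.

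The labels were checked against marker genes before the members were compared. In the SSC libraries the germ line markers Gfra1, Ret and Zbtb16 were present (37.7, 34.1 and 23.9 FPKM of Gfra1), and the 12 germ line markers summed to 702, 892 and 598 FPKM in replicates 1, 2 and 3. In iPSC these 3 genes were under 1 FPKM, but the sum of the list was still 233 to 358 FPKM in SSCiPSC and 204 to 244 FPKM in fiPSC, led by Sall4, which pluripotent cells also express, and Sall4 and Kit were higher in every iPSC library than in any SSC library. Markers of the somatic cells of the testis were present as well. The 8 Sertoli markers with a locus summed to 1035, 1025 and 853 FPKM in the 3 SSC libraries, led by Clu with a mean of 632 FPKM, and the 3 Leydig markers to 160, 124 and 236 FPKM, led by Cyp11a1. Peritubular myoid markers summed to between 70.2 and 85.8 FPKM, led by Acta2, and endothelial markers to between 55.7 and 114 FPKM, led by Pecam1, which pluripotent cells also express. SSC replicate 3 stood apart, since its macrophage markers summed to 113 FPKM, led by C1qa, against 33.6 and 12.1 FPKM in replicates 1 and 2, and its fibroblast or feeder markers to 265 FPKM, led by Col3a1, against 85.2 and 79.6 FPKM.

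In iPSC the pluripotency markers, which include Nanog, Esrrb and Tdgf1, summed to between 1377 and 1448 FPKM in SSCiPSC and between 1115 and 1175 FPKM in fiPSC, against at most 5.74 FPKM in SSC, where Nanog was listed at 0 in all 3 libraries. The Leydig markers summed to at most 0.358 FPKM in an iPSC library, and the Sertoli marker Cst12 and the Leydig marker Lhcgr were listed at 0 in all 6. The endothelial list summed to between 83.4 and 127 FPKM in iPSC, a range that overlaps that of SSC. Most of it in iPSC was Pecam1, at a mean of 101 FPKM in SSCiPSC, 92.9 FPKM in fiPSC and 41.8 FPKM in SSC, while Emcn was listed at 0 in all 6 iPSC libraries. The sum of the Sertoli list stayed between 184 and 322 FPKM in iPSC, most of it from Rhox5, an X-linked homeobox gene. Rhox5 had a mean of 260 FPKM in SSCiPSC and 177 FPKM in fiPSC, against 1.59 FPKM in SSC. Fibroblast or feeder markers summed to between 10.1 and 40.5 FPKM in iPSC. Macrophage markers summed to between 8.48 and 14.3 FPKM there, a range that includes SSC replicate 2 (12.1 FPKM). Their Cd68 had means of 10.8 FPKM in SSCiPSC and 11.0 FPKM in fiPSC, against 8.94 FPKM in SSC, with overlap. The myoid marker Des had means of 5.83 and 6.1 FPKM in SSCiPSC and fiPSC, against 3.15 FPKM in SSC. In bulk RNA, fewer cells of a type and less RNA per cell cannot be told apart, and the part of these other cells in the differences below was not tested.

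**Figure D1:**
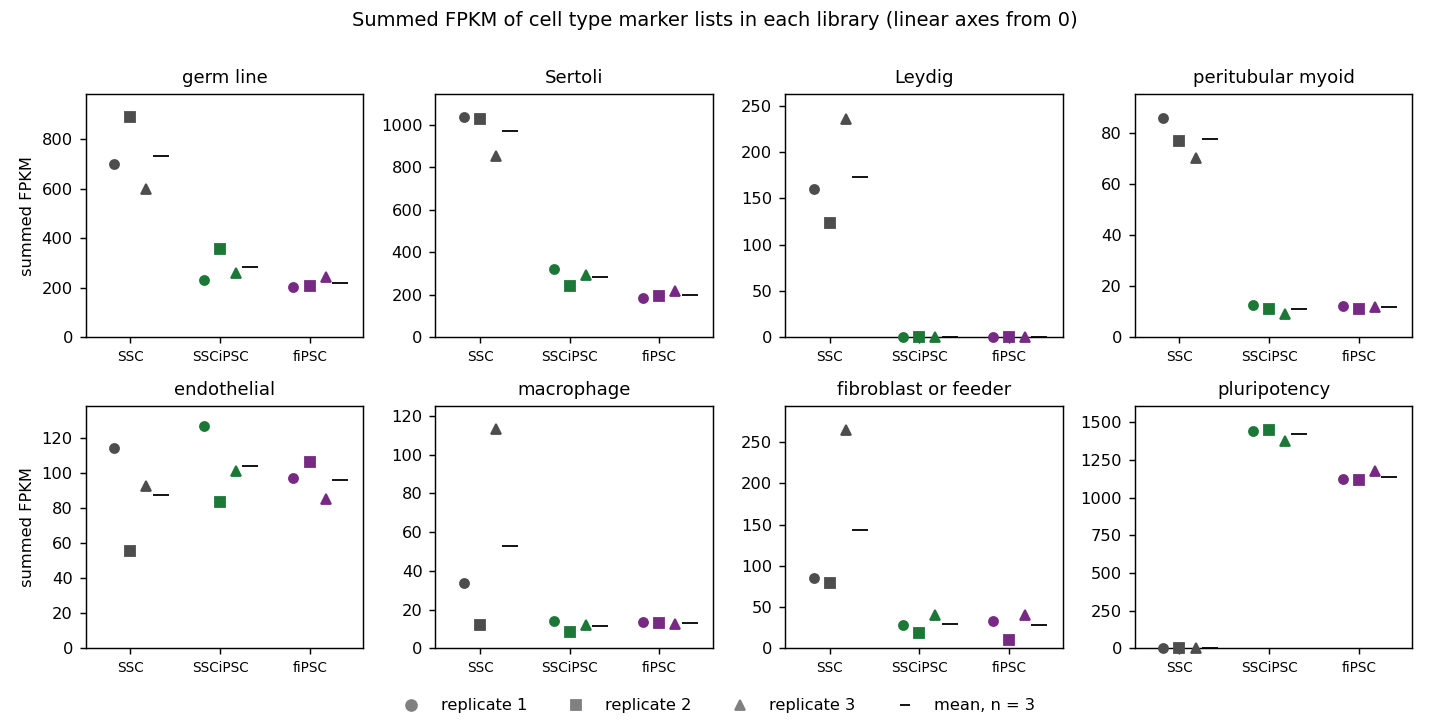
Summed FPKM of each marker list (vertical axis, linear from 0, a scale per panel) in the 3 SSC, 3 SSCiPSC and 3 fiPSC libraries, with a symbol per replicate and a bar at the mean of 3. The Leydig and myoid sums were high in SSC and low in iPSC, Rhox5 and Pecam1 led the Sertoli and endothelial sums in iPSC, and SSC replicate 3 held the highest macrophage sum (113 FPKM).

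Promoter sequences are shown for the members that differed between SSCiPSC and SSC and that have an entry in the RefSeq promoter table of GRCm38.p6, in which 6 of the 10 members were found. These were Fgf4, Fgfr2 and Dusp6, and Etv4 was not among the entries. Each sequence is the 250 bases before the annotated start site, read 5′ to 3′ on the strand of the gene. Fgf4 lies on the plus strand at chr7:144861136-144861385, Fgfr2 on the minus strand at chr7:130266809-130267058 and Dusp6 on the plus strand at chr10:99262981-99263230. Capitals mark matches to any of 6 short motifs on either strand, and no 2 matches overlapped.
Fgf4: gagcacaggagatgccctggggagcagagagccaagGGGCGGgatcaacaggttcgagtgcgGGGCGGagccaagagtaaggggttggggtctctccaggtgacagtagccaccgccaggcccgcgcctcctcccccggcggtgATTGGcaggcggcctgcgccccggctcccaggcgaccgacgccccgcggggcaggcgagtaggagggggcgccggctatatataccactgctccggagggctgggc
Fgfr2: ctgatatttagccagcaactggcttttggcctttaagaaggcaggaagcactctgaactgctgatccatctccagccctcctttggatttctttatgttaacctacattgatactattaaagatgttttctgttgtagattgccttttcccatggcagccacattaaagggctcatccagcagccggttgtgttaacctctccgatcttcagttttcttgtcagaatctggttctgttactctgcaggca
Dusp6: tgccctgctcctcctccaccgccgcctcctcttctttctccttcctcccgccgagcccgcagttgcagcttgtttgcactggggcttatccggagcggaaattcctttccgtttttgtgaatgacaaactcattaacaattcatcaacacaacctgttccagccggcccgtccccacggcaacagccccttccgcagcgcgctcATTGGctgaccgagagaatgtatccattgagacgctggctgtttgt
The motifs were the ETS core CCGGAAG, the AP-1 site TGACTCA, the octamer ATTTGCAT, the GC box GGGCGG, the CCAAT box CCAAT and the TATA box TATAAA. They were found in 6.91%, 4.46%, 1.6%, 32.7%, 33.8% and 12.4% of the 32851 windows of the same length in the table. The window of Fgf4 held 2 GC boxes, which began 214 and 188 bases before the start site, and 1 CCAAT box on the other strand at 106 bases. That of Dusp6 held 1 CCAAT box on the other strand, 46 bases before the start, and that of Fgfr2 held none of the 6. The base composition differed, with 71.2% G and C before Fgf4, 56.4% before Dusp6 and 44% before Fgfr2. A match is a description of these letters only. Counted from the annotated start, the deposited loci of Fgf4 and Dusp6 began at -126 and -1174 bases, so they reach into the sequences shown.

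The levels of the 10 genes fell into another order in iPSC than in SSC. In SSC the highest was Dusp6, with a mean of 35.7 FPKM, and it stood clear of the next, Fgfr1, at 20.6 FPKM. Fgfr1, Spry2 (17.4 FPKM), Etv4 (14.2 FPKM) and Spry4 (12.9 FPKM) followed, and neighbours among these 4 overlapped. Fgfr2 (5.68 FPKM) and Fgfr3 (2.03 FPKM) came below them without overlap, and Fgf8, Fgfr4 and Fgf4 had means under 1 FPKM. In SSCiPSC Fgf4 (78.9 FPKM) and Etv4 (49.6 FPKM) were highest and overlapped, followed by Fgfr1 (19.9 FPKM), Spry2 (19.2 FPKM), Dusp6 (13.7 FPKM) and Spry4 (12.1 FPKM), each of which overlapped the next. In fiPSC the same 6 genes came first in the same order, and only Dusp6 and Spry4 among them overlapped.

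**Figure D2:**
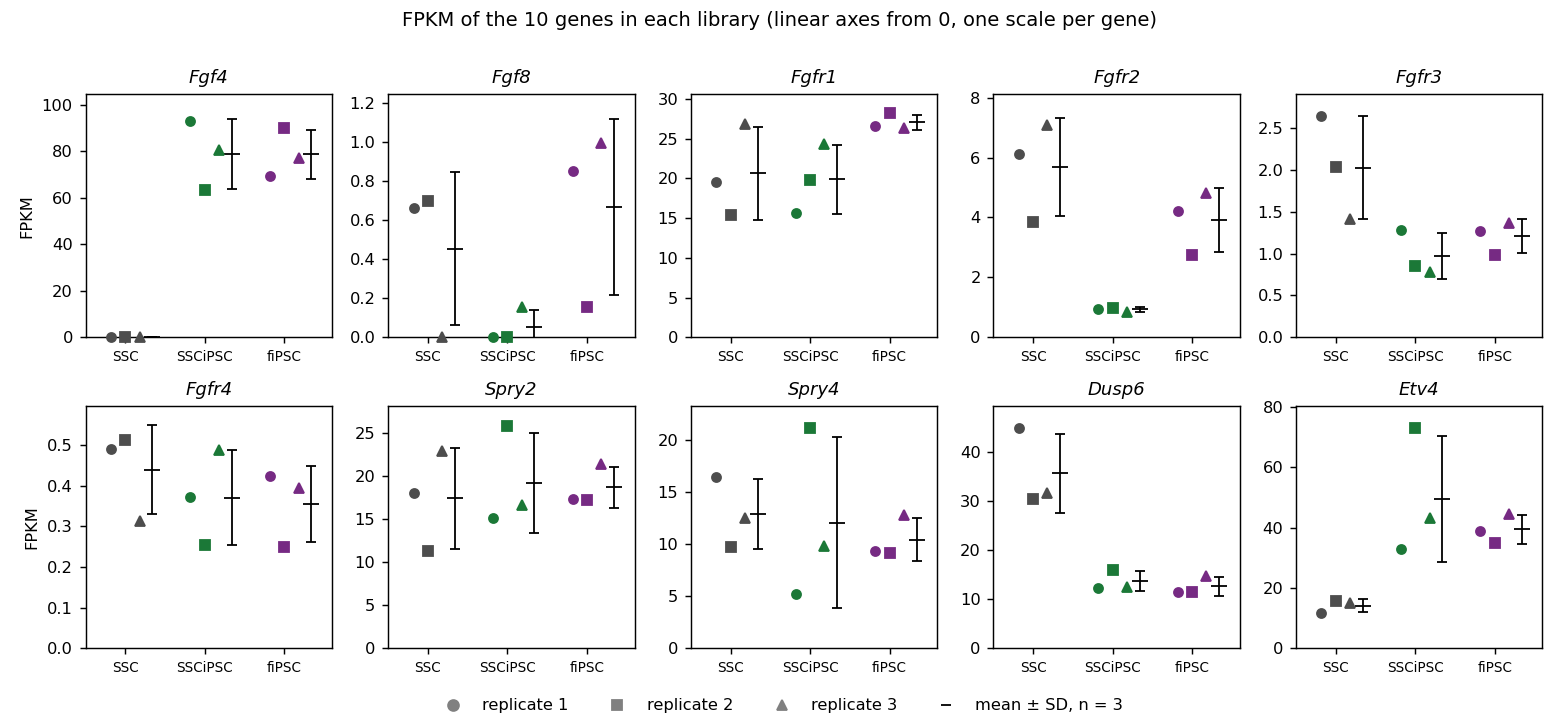
FPKM of each of the 10 genes (vertical axis, linear from 0, a scale per gene) in the SSC, SSCiPSC and fiPSC libraries, with a symbol per replicate and the mean ± SD of 3 beside them. Fgf4 was listed at 0 in all 3 SSC libraries and lay between 63.1 and 92.9 FPKM in the 6 iPSC libraries, Dusp6 was lower and Etv4 higher in every iPSC library than in any SSC library, and Fgfr2 was under 1 FPKM in SSCiPSC only.

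Fgf4, the ligand that pluripotent cells make for themselves, was read from the locus chr7:144861260-144864605 on the plus strand (GRCm38). It was listed at 0 in SSC replicates 1, 2 and 3. It stood at 92.9, 63.1 and 80.6 FPKM in SSCiPSC replicates 1, 2 and 3. It stood at 69.1, 90.0 and 77.2 FPKM in fiPSC. Every iPSC library was therefore far above every SSC library, and the ranges of the SSCiPSC and fiPSC libraries overlapped. The rise was 6.30 ± 0.209 (SE) on the log2(FPKM + 1) scale in SSCiPSC against SSC, with an adjusted p of 2.33e-05 in the limma fit across all loci, and 6.31 ± 0.162 in fiPSC against SSC, with an adjusted p of 1.2e-05. Since SSC were listed at 0, this size depends on the pseudocount, and with 0.1 FPKM in place of 1 it was 9.61 in either comparison. The gene passed the filter on low values through its iPSC libraries alone. Between fiPSC and SSCiPSC the difference was 0.01 ± 0.17 (limma adjusted p = 0.992).

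Fgf8, a ligand of the gastrulating embryo and of early patterning, was low everywhere (chr19:45736868-45742929, minus strand). It stood at 0.661, 0.700 and 0 FPKM in SSC, 0, 0 and 0.153 FPKM in SSCiPSC and 0.854, 0.153 and 0.995 FPKM in fiPSC. The 3 groups overlapped, and the highest SSC value corresponds to 3.23 fragments per kilobase. Fgf8 did not pass the filter, so no difference was tested across loci. The exact permutation test of fiPSC against SSCiPSC gave a two-sided p of 0.2.

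Fgfr1, the receptor that mediates most of the response of mouse pluripotent cells to Fgf4, was the most abundant receptor in every library (chr8:25514217-25576626, plus strand). It stood at 19.6, 15.4 and 26.9 FPKM in SSC, 15.6, 19.8 and 24.3 FPKM in SSCiPSC and 26.6, 28.2 and 26.4 FPKM in fiPSC. SSC and SSCiPSC covered almost the same range, and fiPSC lay in a narrow band near its top. The difference was -0.04 ± 0.255 in SSCiPSC against SSC (limma adjusted p = 0.92), 0.41 ± 0.203 in fiPSC against SSC (adjusted p = 0.142) and 0.44 ± 0.166 in fiPSC against SSCiPSC (adjusted p = 0.371). None of these passed, although fiPSC and SSCiPSC did not overlap. Without SSC replicate 3, fiPSC against SSC gave 0.61 with a limma adjusted p of 0.0159. That library had the most macrophage and fibroblast markers and the lowest depth. With median-ratio scaling between libraries and all 6 kept, fiPSC against SSC gave 0.57 with an adjusted p of 0.0459. These were the only 2 of 16 alternatives that passed. Over all 16 the difference lay between 0.2 and 0.61, with adjusted p up to 0.503.

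Fgfr2 was called in SSCiPSC against SSC and in neither other comparison (chr7:130161752-130266213, minus strand). Its splice forms bind different ligands, and the table does not separate them. It stood at 6.11, 3.86 and 7.07 FPKM in SSC, 0.954, 0.989 and 0.847 FPKM in SSCiPSC and 4.20, 2.75 and 4.83 FPKM in fiPSC. The SSCiPSC libraries were the lowest and close together, while SSC and fiPSC overlapped. Between SSC and SSCiPSC it fell by 1.76 ± 0.282 on the log2(FPKM + 1) scale (limma adjusted p = 0.00259). This size depends on the pseudocount, and with 0.1 FPKM the difference was -2.45. The values in SSCiPSC rested on 12.7 to 15.0 fragments per kilobase and those in SSC on 9.78 to 17.8, and the gene passed the filter through its SSC libraries alone. In fiPSC against SSC the difference was -0.43 ± 0.291 (adjusted p = 0.261). The direct comparison of the iPSC gave 1.33 ± 0.217 higher in fiPSC, with no overlap, and did not pass (limma adjusted p = 0.15). There the gene passed the filter through its fiPSC libraries alone, and with a pseudocount of 0.1 FPKM the difference was 1.93.

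Fgfr3, a receptor best known from cartilage and bone (chr5:33721796-33736107, plus strand), stood at 2.64, 2.03 and 1.41 FPKM in SSC, 1.28, 0.845 and 0.776 FPKM in SSCiPSC and 1.27, 0.978 and 1.37 FPKM in fiPSC. All 6 iPSC libraries were below all 3 SSC libraries, by a small margin. The differences from SSC were -0.61 ± 0.254 in SSCiPSC (limma adjusted p = 0.0888) and -0.44 ± 0.234 in fiPSC (adjusted p = 0.165), and neither passed. Without SSC replicate 3 the first was -0.76 with a limma adjusted p of 0.0433. With all 9 libraries in the fit it was -0.61 with an adjusted p of 0.0355. These were the only 2 of 15 alternatives that passed, and the adjusted p reached 0.232 in the others. The SSC values of Fgfr3 rested on 1.95 to 9.38 fragments per kilobase. Against SSC the gene would not pass the filter without its SSC libraries. Fgfr4 (chr13:55152758-55168713, plus strand) stood at 0.490, 0.513 and 0.313 FPKM in SSC, 0.371, 0.253 and 0.488 FPKM in SSCiPSC and 0.424, 0.248 and 0.393 FPKM in fiPSC. The 3 groups overlapped, and Fgfr4 did not pass the filter.

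The makeup of the receptor transcripts was compared per library as a share of the summed FPKM of the 4 receptors, which is a scale per length. Fgfr1 made up 71.3% ± 3.75 (SD, n = 3) of it in SSC, 89.4% ± 3.28 in SSCiPSC and 83.2% ± 3.97 in fiPSC, and the lowest iPSC library (80%) was above the highest SSC library (75.4%). Fgfr2 made up 19.6% ± 1.78 in SSC, 4.32% ± 1.03 in SSCiPSC and 12% ± 3.14 in fiPSC, so that fiPSC lay between the other groups with no overlap on either side. Fgfr3 made up 7.47% ± 3.05, 4.6% ± 2.14 and 3.7% ± 0.581, and Fgfr4 at most 2.35% in any library. The sum itself was 28.8 ± 6.93 FPKM in SSC, 22.2 ± 4.1 FPKM in SSCiPSC and 32.5 ± 0.441 FPKM in fiPSC. These shares are given as a description and were not tested.

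**Figure D3:**
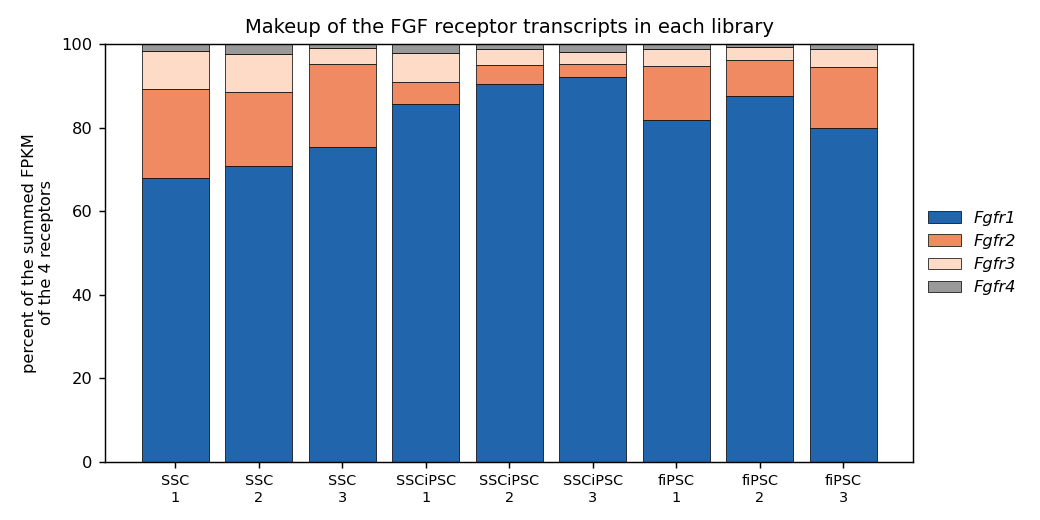
Share of each FGF receptor (vertical axis, percent of the summed FPKM of the 4 receptors) in each of the 9 libraries, stacked. Fgfr1 filled at least 80% of every iPSC bar and at most 75.4% of an SSC bar, and Fgfr2 was smallest in the SSCiPSC libraries (3.21% to 5.23%).

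Among the feedback inhibitors, Dusp6 differed between SSC and iPSC, and the 2 Sprouty genes gave no call. Dusp6, a cytoplasmic phosphatase that removes the activating phosphates of ERK, stood at 45.0, 30.4 and 31.7 FPKM in SSC, 12.4, 16.0 and 12.6 FPKM in SSCiPSC and 11.6, 11.5 and 14.8 FPKM in fiPSC (chr10:99262057-99270109, plus strand). The lowest SSC library was well above the highest iPSC library. Dusp6 fell by 1.31 ± 0.205 on the log2(FPKM + 1) scale in SSCiPSC (limma adjusted p = 0.00234) and fell by 1.41 ± 0.194 in fiPSC (adjusted p = 0.00145), and fiPSC against SSCiPSC gave -0.11 ± 0.163 (adjusted p = 0.848). The locus is longer than the annotated gene, with which it shares 52.9% of its length, and it would not be assigned if an overlap of 80% were asked for.

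Spry2, an inhibitor of receptor tyrosine kinase signalling upstream of ERK, stood at 18.1, 11.3 and 22.9 FPKM in SSC, 15.1, 25.9 and 16.7 FPKM in SSCiPSC and 17.4, 17.3 and 21.4 FPKM in fiPSC (chr14:105890568-105897760, minus strand). The 3 groups overlapped with means between 17.4 and 19.2 FPKM. The differences were 0.15 ± 0.314 in SSCiPSC against SSC (limma adjusted p = 0.724), 0.14 ± 0.261 in fiPSC against SSC (adjusted p = 0.674) and -0.01 ± 0.212 between the iPSC (adjusted p = 0.995). Spry4, of the same family (chr18:38585536-38602947, minus strand), stood at 16.4, 9.72 and 12.5 FPKM in SSC, 5.21, 21.1 and 9.84 FPKM in SSCiPSC and 9.29, 9.13 and 12.8 FPKM in fiPSC. SSCiPSC replicate 2 was the highest of all 9 libraries and replicate 1 the lowest, so the spread within SSCiPSC covered both other groups. The differences from SSC were -0.25 ± 0.47 in SSCiPSC (adjusted p = 0.691) and -0.27 ± 0.232 in fiPSC (adjusted p = 0.373). Spry2 and Spry4 share their intervals with other loci of no strand, some of which reached 10.7 FPKM at Spry2 and 5.91 FPKM at Spry4 and which were not counted here.

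Etv4, an ETS transcription factor of the PEA3 group that ERK activates, stood at 11.7, 15.8 and 15.1 FPKM in SSC, 32.8, 72.9 and 43.1 FPKM in SSCiPSC and 38.8, 34.9 and 44.6 FPKM in fiPSC (chr11:101769896-101786446, minus strand). All 6 iPSC libraries were above all 3 SSC libraries, and SSCiPSC replicate 2 was the highest. Etv4 rose by 1.67 ± 0.303 on the log2(FPKM + 1) scale in SSCiPSC (limma adjusted p = 0.00434) and by 1.42 ± 0.16 in fiPSC (adjusted p = 0.000693). Without SSCiPSC replicate 2 the first difference was 1.36 with an adjusted p of 0.00735. Between fiPSC and SSCiPSC it was -0.25 ± 0.274 (adjusted p = 0.766).

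Of the 10 members, 8 passed the filter, which asked for 1 FPKM or more in 3 or more of the libraries compared, and Fgf8 and Fgfr4 did not. In SSCiPSC against SSC, 4 members were called, with Fgf4 and Etv4 higher and Fgfr2 and Dusp6 lower, where 50.3% of the 36544 loci tested were called, 26.2% higher and 24.1% lower. In fiPSC against SSC, 3 members were called, Fgf4 and Etv4 higher and Dusp6 lower, where 51.8% of 38007 loci were called, 28.0% higher and 23.7% lower. Of the 8 members tested, 4 called in SSCiPSC is near the share of all loci and 3 in fiPSC is below it, and what can be described is which of them moved and which way. The 2 comparisons share the SSC libraries. Fgf4 against SSC, and Fgfr2 in SSCiPSC against SSC, passed the filter only through the group where they were higher, so these counts are descriptions. Without SSC replicate 3 the counts were 5 and 4 members, since Fgfr3 and Fgfr1 passed in turn. In fiPSC against SSCiPSC no member was called by limma, where 0.0678% of 33948 loci were. Fgfr1 and Fgfr2, the latter tested only through its fiPSC values, had an unadjusted p under 0.05, as did 3988 of the 33948 loci.

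Groups did not overlap for 5 members in SSCiPSC against SSC (59.8% of loci), for 4 in fiPSC against SSC (61.6% of loci) and for 2, Fgfr1 and Fgfr2, in fiPSC against SSCiPSC (18.6% of loci). With 3 libraries against 3 the exact two-sided permutation test of a member cannot go below 0.1, and it reached 0.1 for each of these. The median difference of the 8 members that passed was -0.14 in SSCiPSC against SSC and -0.06 in fiPSC against SSC, beside medians of 0.11 and 0.17 over all loci.

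**Figure D4:**
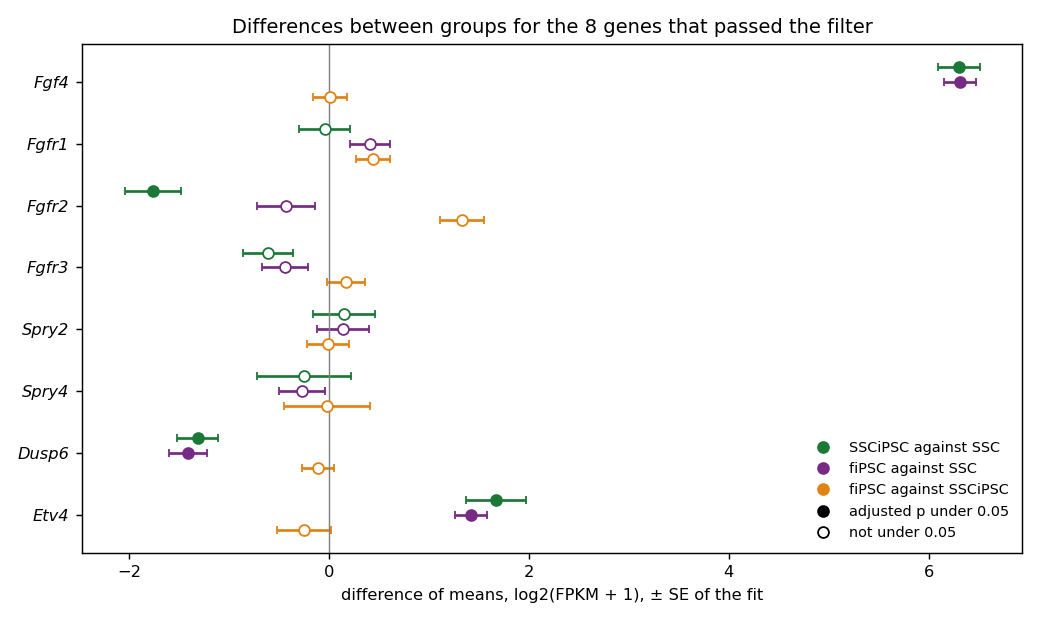
Difference of group means on the log2(FPKM + 1) scale (horizontal axis, ± SE of the limma fit) for the 8 members that passed the filter in 3 comparisons, filled where the adjusted p was under 0.05. Fgf4 lay near 6.3 against SSC in either iPSC, Etv4 was to the right and Dusp6 to the left of 0 in both, and Fgfr2 was filled in SSCiPSC against SSC only, with fiPSC against SSCiPSC at 1.33 and open.

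The libraries of a group were not alike in these genes. Among SSCiPSC, replicate 2 was the highest of the 3 for 5 of the 8 members with a mean of at least 1 FPKM over all 9 libraries, namely Fgfr2, Spry2, Spry4, Dusp6 and Etv4, and the lowest for Fgf4. Replicate 2 was the highest for 22 of the 56 other pathway genes at that level (39.3%) and for 32.9% of all loci. In fiPSC, replicate 3 was the highest for 6 of the 8 members, again with the 4 genes of feedback and target among them, beside 25 of the 56 other pathway genes (44.6%) and 36% of all loci. These counts describe the libraries and were not tested.

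The rest of the pathway was read from 6 lists with 85 genes, of which 67 had a locus and 58 passed the filter in SSCiPSC against SSC. Of these 58, 12 rose, 26 fell and 20 were not called. In fiPSC against SSC 57 passed the filter, of which 14 rose, 27 fell and 16 were not called. In fiPSC against SSCiPSC none of 53 was called by limma. An unadjusted p under 0.05 was found for 4 of them, and for 3988 of the 33948 loci tested. Several of these genes, such as Fgf15, Fgf10, Fgf13, Etv1, Fosl1 and Flrt2, passed the filter only through the group where they were high. The counts are therefore descriptions, to be read beside the 50.3% and 51.8% of all loci called and the medians of 0.11 and 0.17 over all loci. By direction, 26.2% of all loci were called higher and 24.1% lower in SSCiPSC, and 28.0% and 23.7% in fiPSC. These shares apply to the counts of each list below.

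Among the other ligands, Fgf17, Fgf15 and Fgf10 rose and Fgf13 fell in SSCiPSC, of 5 that passed the filter out of 20 listed, and the median was 1.62 (0.64 over 4 in fiPSC). Fgf17, of the Fgf8 subfamily, stood at 1.62, 0.62 and 1.26 FPKM in SSC, 12.6, 28.0 and 12.3 FPKM in SSCiPSC and 10.5, 12.4 and 10.3 FPKM in fiPSC, with SSCiPSC replicate 2 again the highest. It rose by 3.03 ± 0.385 in SSCiPSC (limma adjusted p = 0.00102) and by 2.50 ± 0.252 in fiPSC (adjusted p = 0.00045). Fgf15, the mouse counterpart of the hormone FGF19, rose by 2.80 ± 0.253 in SSCiPSC, from a mean of 0.13 to 6.78 FPKM, and by 2.02 ± 0.231 in fiPSC, to 3.56 FPKM. The iPSC did not overlap in Fgf15, and their difference did not pass (limma adjusted p = 0.223). Fgf10, a ligand of mesenchyme for epithelia, rose by 1.62 ± 0.317 in SSCiPSC, from a mean of 0.0377 to 2.38 FPKM, and did not pass the filter in fiPSC against SSC. Its fiPSC libraries (0.821, 0.625 and 1.05 FPKM) were all above those of SSC, and with no filter it was called there (0.82, limma adjusted p = 0.00463). With no filter 6 ligands of the list rose and 1 fell in fiPSC, and 4 rose and 1 fell in SSCiPSC. With SSC or iPSC values low or near 0 these sizes depend on the pseudocount. With 0.1 FPKM the differences in SSCiPSC were 3.79 for Fgf17, 5.34 for Fgf15, 4.11 for Fgf10 and -4.21 for Fgf13. In SSCiPSC against SSC, Fgf15 and Fgf10 passed the filter through their SSCiPSC libraries alone, and Fgf13 through its SSC libraries alone. Fgf13, an intracellular member of the family that is not secreted, fell by 2.59 ± 0.348 in SSCiPSC, from 7.11 to 0.29 FPKM, and fell by 2.37 ± 0.337 in fiPSC. Fgf2, Fgf9 and 6 more ligands had no locus and were not analysed here.

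Of the co-receptors and adaptors, 2 rose and 4 fell in SSCiPSC among 9 that passed the filter, with a median of -0.48. There 26.2% of all loci were called higher and 24.1% lower. In fiPSC 3 rose and 5 fell, with a median of -0.53, beside 28.0% and 23.7% of all loci. Gab1, a docking protein that couples receptors to the RAS and PI3 kinase pathways, rose by 2.15 ± 0.14, from 23.3 ± 2.77 (SD, n = 3) to 106 ± 7.65 FPKM (limma adjusted p = 0.000128), and stood at 111 ± 9.15 FPKM in fiPSC. The docking proteins of the FGF receptors moved in opposite directions, since Frs2 fell by 1.11 ± 0.177, from 11.8 to 4.94 FPKM, and Frs3 rose by 0.71 ± 0.219, from 2.91 to 5.4 FPKM. The call of Frs3 was lost when any SSCiPSC library, SSC replicate 1 or SSC replicate 2 was left out, with adjusted p between 0.0592 and 0.103 in those fits. Sos2, an exchange factor that loads RAS with GTP, fell by 2.54 ± 0.217, from 17.8 to 2.25 FPKM, and Flrt2, a membrane protein that binds FGF receptors, fell by 3.20 ± 0.218, from 12.9 to 0.508 FPKM. With a pseudocount of 0.1 FPKM the difference of Flrt2 was -4.42. Sos1, a close relative of Sos2, differed by -0.59 ± 0.166 (adjusted p = 0.0253), and its call was lost with median-ratio scaling (adjusted p = 0.115) and without SSC replicate 1 or 2 or SSCiPSC replicate 1 or 2, with adjusted p between 0.0522 and 0.068. All 6 of these genes had the same direction and were called in fiPSC against SSC. The other calls in fiPSC, Grb2 at 0.52 ± 0.163 (adjusted p = 0.0374) and Flrt3 at -0.53 ± 0.179 (adjusted p = 0.047), were each lost when any fiPSC library, SSC replicate 2 or SSC replicate 3 was left out, with adjusted p between 0.066 and 0.136. Flrt3 passed the filter through its SSC libraries alone. Its call was also lost with no filter (limma adjusted p = 0.0811) and with a pseudocount of 0.1 FPKM (adjusted p = 0.0615). In fiPSC 2 rose and 4 fell without any 1 fiPSC library or without SSC replicate 2, and 2 rose and 5 fell without SSC replicate 3, where another gene, Ptpn11, was called.

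More heparan sulphate genes were called lower than higher, where 24.1% of all loci in SSCiPSC and 23.7% in fiPSC were called lower. Of 13 that passed, 8 were lower and 1 was higher in SSCiPSC, with a median of -0.85, and 8 were lower and 1 was higher in fiPSC, with a median of -0.76. In SSCiPSC 7 were lower with median-ratio scaling and without SSC replicate 2, SSCiPSC replicate 1 or SSCiPSC replicate 3. Hs2st1 lost its call in each of these, with limma adjusted p between 0.065 and 0.102. Sdc4, a cell surface proteoglycan, stood at 284 ± 41.7 FPKM in SSC, 24.9 ± 3.85 FPKM in SSCiPSC and 50.4 ± 8.06 FPKM in fiPSC (n = 3 each). It fell by 3.46 ± 0.174 in SSCiPSC (limma adjusted p = 6.78e-05), and the iPSC did not overlap, though their difference of 0.98 ± 0.166 did not pass (adjusted p = 0.151). Sdc2 fell by 2.36 ± 0.257 and Ndst1, which starts the sulphation of the chains, fell by 1.59 ± 0.158. With a pseudocount of 0.1 FPKM the difference of Sdc2 was -3.24. Gpc3, a proteoglycan linked to the membrane by a lipid anchor, rose by 1.2 ± 0.326, from 18.6 ± 6.45 to 44.6 ± 16.7 FPKM. Its call was lost in SSCiPSC with quantile normalization (adjusted p = 0.0684) and when SSC replicate 1 or 2 or SSCiPSC replicate 1 or 3 was left out (0.053 to 0.0625). In fiPSC its difference of 0.69 ± 0.232 was close to the threshold (adjusted p = 0.0464). That call was lost in most settings run, among them quantile normalization (adjusted p = 0.162) and each fit that left out a fiPSC library or SSC replicate 1 or 2, with adjusted p between 0.102 and 0.139.

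Of 11 genes of the kinase chain, 3 rose and 2 fell in SSCiPSC, and 4 rose and 2 fell in fiPSC. The medians were 0.4 and 0.31. Of all loci, 50.3% were called in SSCiPSC, 26.2% higher and 24.1% lower, and 51.8% in fiPSC, 28.0% higher and 23.7% lower. The counts depend on the scaling and on the libraries. In SSCiPSC 1 rose and 2 fell with quantile normalization, 5 rose and 1 fell with median-ratio scaling, and 2 rose and 2 fell without SSC replicate 1, SSC replicate 2 or SSCiPSC replicate 3. Without SSCiPSC replicate 1, 5 rose and 1 fell. In fiPSC 3 rose and 2 fell with quantile normalization. Nras rose by 1.08 ± 0.135, from 28.2 to 60.3 FPKM, and the MEK gene Map2k1 by 0.99 ± 0.148, from 53.7 to 107 FPKM, in SSCiPSC. The call of Map2k1 depends on the scaling, since with quantile normalization it was 0.25 (limma adjusted p = 0.259). Nf1 and Rasa1, which return RAS to its inactive form, fell by 1.83 ± 0.186 and 0.71 ± 0.176. Nf1 went from 23.6 to 6.0 FPKM and Rasa1 from 30.5 to 18.1 FPKM. The call of Rasa1 was lost with median-ratio scaling (adjusted p = 0.0708) and without SSCiPSC replicate 1 (adjusted p = 0.0501).

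Of the other feedback regulators none rose and 6 of 11 fell in SSCiPSC, with a median of -0.61. In fiPSC the phosphatase gene Dusp9 rose and 6 fell, with a median of -0.71. Over all loci, 24.1% were called lower in SSCiPSC and 23.7% in fiPSC, and 26.2% and 28.0% were called higher. The SSCiPSC counts moved when single libraries were left out. There 1 rose and 4 fell without SSCiPSC replicate 1 or without SSCiPSC replicate 3, and none rose and 4 fell without SSC replicate 1. Dusp4, a phosphatase of the nucleus, stood at 30.7, 28.2 and 44.4 FPKM in SSC and between 1.2 and 2.08 FPKM in iPSC, and fell by 3.79 ± 0.252 in SSCiPSC (limma adjusted p = 0.000137). With a pseudocount of 0.1 FPKM that difference was -4.4. Dusp5, also nuclear, stood at 125, 103 and 138 FPKM in SSC and between 7.18 and 9.87 FPKM in iPSC, and fell by 3.66 ± 0.177 (adjusted p = 6.19e-05). Rasa2, another RAS-inactivating protein, fell by 1.69 ± 0.225, from 29.6 to 8.28 FPKM. Dusp7, another ERK phosphatase, fell by 1.41 ± 0.233. It kept its call in each alternative of pseudocount, filter, scaling and fit and with each library left out. The overlap of its locus with the gene was 0.762 as a fraction, and that of the Dusp5 locus was 0.656. Neither of these loci would be assigned if 80% were asked for. The RAS pathway inhibitors Spred1 and Spred3 were close to the threshold, at -0.61 ± 0.181 (adjusted p = 0.0303) and -0.74 ± 0.216 (adjusted p = 0.0274). Against SSC, Spred3 passed the filter in either iPSC through its SSC libraries alone, where it was higher. Spred1 lost its call with median-ratio scaling (adjusted p = 0.109) and in each fit without 1 library other than SSC replicate 2, and Spred3 lost it without SSC replicate 1, SSCiPSC replicate 1 or SSCiPSC replicate 3, with adjusted p between 0.0525 and 0.101 for both. In fiPSC the call of Spred3 was lost without fiPSC replicate 1 (adjusted p = 0.0508) or fiPSC replicate 2 (adjusted p = 0.0582). Spry1, Spred2, Dusp9, Il17rd and Cbl were not called in SSCiPSC against SSC.

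Of the 9 other target genes that passed the filter, 3 rose and 5 fell in either iPSC, with a median of -1.17 in both. Fos was not called in either. The shares of all loci called were 26.2% higher and 24.1% lower in SSCiPSC, and 28.0% and 23.7% in fiPSC. The relatives of Etv4 rose, Etv5 from 32.8 ± 5.27 to 123 ± 19.8 FPKM in SSCiPSC and 104 ± 12.7 FPKM in fiPSC (n = 3 each), by 1.87 ± 0.179 (limma adjusted p = 0.00038) and 1.64 ± 0.152 (adjusted p = 0.000339). Etv1 rose by 1.64 ± 0.248 in SSCiPSC, from a mean of 0.266 to 2.89 FPKM, and by 3.45 with a pseudocount of 0.1 FPKM. It passed the filter through its iPSC libraries alone. Etv5 is also known for its role in the self-renewal of SSC. Immediate early genes went both ways. Ier2, read from a locus of no strand, rose by 1.25 ± 0.262, from 13.4 to 34.3 FPKM. Fosl1, a subunit of the AP-1 factor, fell by 5.39 ± 0.188, from 59.1 to 0.438 FPKM. Ier3 fell by 4.27 ± 0.289, from 119 to 5.54 FPKM, and Egr2 fell by 3.74 ± 0.277, from 28.7 to 1.14 FPKM. Egr1 and Srf fell as well. With a pseudocount of 0.1 FPKM the differences were -6.84 for Fosl1 and -4.49 for Egr2.

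**Figure D5:**
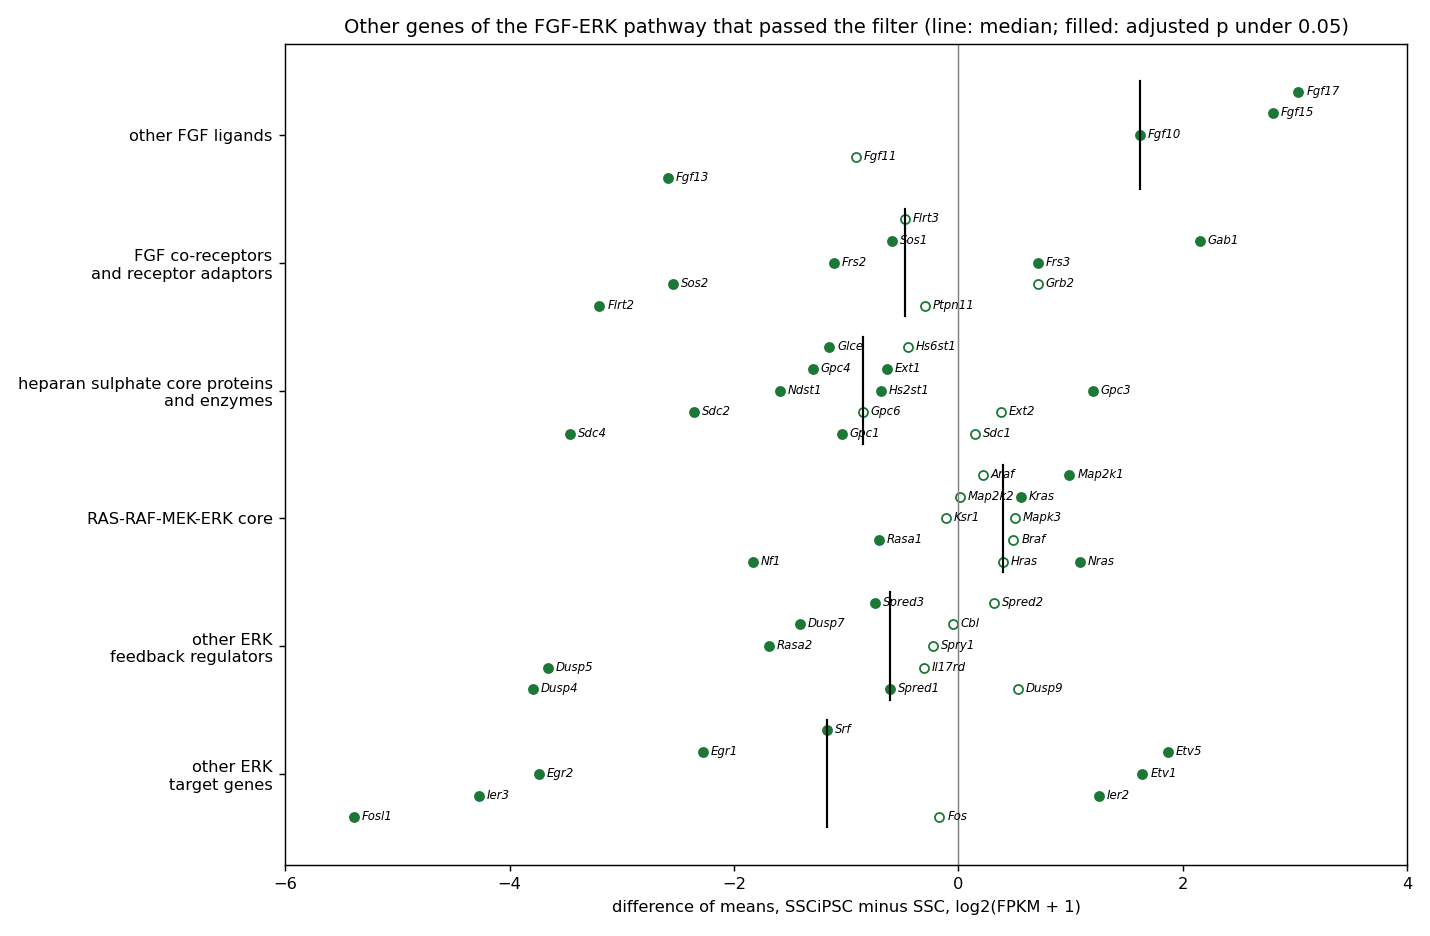
Difference of means on the log2(FPKM + 1) scale, SSCiPSC minus SSC (horizontal axis), for the 58 other pathway genes that passed the filter, by list, filled where the limma adjusted p was under 0.05, with a line at each list's median. The ligands Fgf17 and Fgf15 and the adaptor Gab1 lay farthest to the right, and Fosl1, Ier3, Dusp4, Dusp5, Egr2 and Sdc4 lay farthest to the left, with the kinase chain near a median of 0.4.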

How the data were processed

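RNA of the 9 libraries was sequenced in pairs after a stranded kit for polyadenylated RNA, with depletion of ribosomal RNA also named in the labels. The deposited values are FPKM, made by the authors with Cufflinks (2.2.1) after Trimmomatic (0.32), TopHat2 (2.0.9) and Bowtie2 (2.1.0), although the file header calls them RPKM. Of 54914 loci, 1 with a blank value was left out. The submitters' processing notes name mm9, but the coordinates fit GRCm38, where 4254 stranded loci had both ends within 300 bases of a gene or transcript, so GRCm38 was used. A locus was assigned to a gene where their overlap was at least 50%, and of several loci the one with the highest mean was taken. For all members the locus was on the strand of the gene. Some loci, such as those of Fgf13, Araf and Rhox5, cover less than 50% of the annotated gene. No strand is given for 70.2% of loci. Such loci were not used for the members, but Ier2, Fgf14 and Fgf22 in the lists were read from a locus of no strand. Of 155 genes listed, 126 had a locus of their own, 1 shared one and 28 had none. The labels give passages 10 to 11 for iPSC and the methods of the study later ones. Some genes first listed are not reported here and were left out of all counts of lists. The starting fibroblasts were not analysed here.

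Groups were compared with limma (3.58.1, R 4.3.3) on log2(FPKM + 1) over the 6 libraries of a comparison, for loci with 1 FPKM or more in 3 or more of them, with a trend in eBayes, two-sided, and Benjamini-Hochberg adjustment over all loci tested at 0.05. Depth was estimated from 12016 unstranded loci, whose values under 6 fragments came out as whole multiples of 1 fragment, within 0.1 of a fragment, for 100% of values in each library. The fit was tested on simulated data with 200 loci changed by 2 on the log2 scale. It recovered 61.5% in SSCiPSC against SSC, 57% in fiPSC against SSC and 76% in fiPSC against SSCiPSC. Of its calls 3.15%, 5% and 3.8% were false. In the data 50.3% and 51.8% of loci were called against SSC, a far larger share than was simulated. The recovery therefore does not carry over to those comparisons. All members were named, and from each list the 3 called genes with the largest rise and the 3 with the largest fall in SSCiPSC against SSC, apart from the kinase chain, where 2 rising genes are named; further genes are named only to complete a count. The members and lists were chosen with earlier results of these data known. Alternatives were the pseudocount, the filter, the scaling, the variance model, the libraries in the fit, a replicate block, each library left out, the sum of a gene's loci and the overlap asked for.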

Additional observations from a re-analysis of the deposited data

Results flagged for a closer look

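Besides the locus that was analysed for Fgf4, 2 more loci at this gene were listed at 0 in all 3 SSC libraries and had signal in all 6 iPSC libraries, outside the comparisons above. The first covers the same interval on the opposite strand (chr7:144861260-144864605) and stood at 9.33, 4.53 and 7.76 FPKM in SSCiPSC and 8.11, 8.61 and 11.2 FPKM in fiPSC. Its lowest iPSC library thus had 4.53 FPKM, where the Fgf4 locus itself had 63.1 FPKM in that library. The second has no strand and lies at the 3′ end of the gene (chr7:144864902-144865827, with the annotated end at 144865245). It stood at 62.9, 43.0 and 52.0 FPKM in SSCiPSC and 43.2, 49.5 and 50.2 FPKM in fiPSC, so its lowest iPSC library had 43.0 FPKM. In both loci, as in Fgf4, SSCiPSC replicate 2 was the lowest of the 3 SSCiPSC libraries.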

How the results depend on the processing

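Fgf4, Fgfr2, Dusp6 and Etv4 in SSCiPSC against SSC kept their direction and stayed past the threshold in every alternative run. So did Fgf4, Dusp6 and Etv4 in fiPSC against SSC. The exceptions were that Dusp6 has no locus when 80% overlap is asked for, and Fgfr2 is not tested with a mean of at least 5 FPKM. Fgf4 in either comparison, and Fgfr2 in SSCiPSC, passed the filter only through the group where they were higher. The replicate numbers do not pair the libraries (correlations of same-numbered deviations between -0.236 and 0.0239), and with the replicate block 16926 and 17546 loci passed against SSC, and 6 in fiPSC against SSCiPSC in place of 23. With it Frs3 (adjusted p = 0.0959), Sos1 (adjusted p = 0.0641) and Spred3 (adjusted p = 0.0777) in SSCiPSC, and Gpc3 (adjusted p = 0.0749), Spred3 (adjusted p = 0.0571), Grb2 (adjusted p = 0.0644) and Flrt3 (adjusted p = 0.123) in fiPSC, lost their calls against SSC. In fiPSC against SSCiPSC 10 loci passed with no filter, 11 with a mean of at least 5 FPKM, 11 with all 9 libraries in the fit, and between 6 and 20 with a library left out. With a mean of at least 5 FPKM, 9707 and 10158 loci passed in SSCiPSC and fiPSC against SSC in place of 18396 and 19680, with fewer loci tested. Over all loci the median difference against SSC was 0.28 in SSCiPSC and 0.31 in fiPSC after median-ratio scaling and 0.05 in both after quantile normalization, beside 0.11 and 0.17 as deposited. Members with no call changed sign. In SSCiPSC against SSC, Fgfr1 was 0.16 with median-ratio scaling and -0.22 to 0.16 with a library left out, Spry2 -0.05 with quantile normalization and -0.12 to 0.36, and Spry4 -0.73 to 0.19. In fiPSC against SSC, Spry2 was -0.12 to 0.36 with a library left out. In fiPSC against SSCiPSC, Fgf4 was -0.03 with median-ratio scaling and -0.14 to 0.13 with a library left out, Fgfr3 -0.00237 with quantile normalization, Spry2 0.06 with it, 0.25 as the sum of its loci and -0.15 to 0.22, Spry4 0.00598, 0.1 and -0.46 to 0.46 likewise, Dusp6 -0.22 to 0.00614 and Etv4 -0.5 to 0.06. With quantile normalization Map2k1 was 0.26 (adjusted p = 0.182) in fiPSC against SSC, and Gpc3 in fiPSC lost its call in 11 of the settings run. The cause of these changes was not tested. Depth limits SSC most, where values under 1 FPKM rest on few fragments.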
